A study of Homo sapiens with 4 samples.

Results

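The 41 genes described here carry cells from G1 into S phase and copy the DNA: origin recognition and licensing factors, the MCM helicase and its activators, the sliding clamp and its loader, the replicative polymerases, Okazaki fragment enzymes, deoxynucleotide synthesis, the G1/S cyclins with E2F1, and histone supply. They were matched by symbol, and were found in all 12 libraries of a table of 26348 genes. All 41 passed the filter on low values, which kept 13811 genes. The study sequenced RNA of 2 human cell lines, each after 2 h in a magnetic field (exposed) or without a field (control), with 3 libraries in each of the 4 groups. A549 derives from non-small cell lung cancer, and 293T is an embryonic kidney line described in the labels as renal epithelium. As background, 293T cells carry a viral large T antigen that binds the RB family of E2F repressors, and A549 cells lack the CDK inhibitor CDKN2A. In these libraries CDKN2A was at 0.013 ± 0.0116 FPKM in A549 controls and 25.9 ± 1.24 FPKM in 293T controls (mean ± SD, n = 3 each). Both are established lines, and neither is normal tissue. Whether the 3 libraries in each group represent independent cultures is not stated, so the p-values rest on a spread among libraries that could be purely technical. The field's strength and the temperature are likewise not stated.

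In G1, the origin recognition complex, CDC6 and CDT1 load the MCM2 to MCM7 ring onto DNA as an inactive helicase. Cyclin D and then cyclin E, with their kinases, inactivate RB and release E2F factors, which switch on most genes of this group. At the start of S phase CDC45 and the GINS complex join MCM to form the active helicase, and the polymerases, held by the PCNA clamp, then copy both strands.

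Promoter sequences are shown first because E2F is the shared regulator known for these genes. RefSeq promoters (GRCh38.p14, 250 bases before to 50 after each start) were matched for 36 of the 41 genes; MCM4, MCM5, GINS4, CCND1 and CCNE2 had no match. The search used the E2F forms TTTCCCGC, TTTGGCGC, TTTCGCGC and TTTGCCGC on both strands, and neighbouring forms can overlap each other. At least 1 form was found in 18 of the 36 promoters (50%), against 600 of all 11182 promoters (5.4%). The plain CCAAT letters, also searched on both strands, were in 55.6% of the 36 and in 36.7% of all promoters, GGGCGG was in 75.0% and 69.9%, and TATAAA was in 5.6% and 5.7%. A match is a description of letters, not a bound site. The sequences below read 5′ to 3′ on the strand of the gene and end at the base before the start in RefSeq's promoter table, with E2F forms in capitals; a form on the other strand appears as its reverse complement. MCM6 is shown for its 2 runs of overlapping forms, MCM7, CDT1, PCNA, POLE and E2F1 for forms nearer the start, and ORC1, UNG and CCNE1 because they fell in exposed A549 cells and held no form in the window. The promoter table's start coincides with the upstream end of the RefSeq gene span for 33 of the 36 genes and lies inside that span for CDC45, ORC1 and RRM2. For ORC1 it lies 5080 bases inside, and the upstream end of that span was not searched.
MCM6, chr2:135876444-135876603, minus strand: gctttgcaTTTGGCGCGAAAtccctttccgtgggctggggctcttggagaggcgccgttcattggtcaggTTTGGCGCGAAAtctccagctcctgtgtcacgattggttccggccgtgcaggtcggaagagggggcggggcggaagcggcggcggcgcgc
MCM7, chr7:100101398-100101497, minus strand: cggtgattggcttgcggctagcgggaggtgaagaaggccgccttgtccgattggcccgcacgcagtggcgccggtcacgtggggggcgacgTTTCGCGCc
CDT1, chr16:88803689-88803788, plus strand: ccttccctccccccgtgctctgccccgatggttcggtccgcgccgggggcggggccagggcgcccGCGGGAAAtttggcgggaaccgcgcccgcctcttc
PCNA, chr20:5126623-5126722, minus strand: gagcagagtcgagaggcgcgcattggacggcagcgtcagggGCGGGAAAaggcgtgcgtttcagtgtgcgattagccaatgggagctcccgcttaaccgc
POLE, chr12:132687343-132687442, minus strand: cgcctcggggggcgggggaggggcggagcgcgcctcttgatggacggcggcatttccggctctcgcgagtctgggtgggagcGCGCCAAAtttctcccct
E2F1, chr20:33686386-33686485, minus strand: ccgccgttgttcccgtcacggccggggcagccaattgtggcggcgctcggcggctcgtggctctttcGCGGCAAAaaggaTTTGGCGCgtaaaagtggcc
ORC1, chr1:52404424-52404523, minus strand: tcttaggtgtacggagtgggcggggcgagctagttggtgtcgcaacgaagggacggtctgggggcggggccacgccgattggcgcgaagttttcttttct
UNG, chr12:109097497-109097596, plus strand: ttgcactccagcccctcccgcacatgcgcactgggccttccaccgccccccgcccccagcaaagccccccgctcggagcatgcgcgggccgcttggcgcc
CCNE1, chr19:29811891-29811990, plus strand: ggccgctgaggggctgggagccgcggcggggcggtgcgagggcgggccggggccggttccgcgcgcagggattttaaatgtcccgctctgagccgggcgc

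Falls were about as frequent with a form as without one. In A549, 12 of the 18 genes with a form fell and 0 rose, with a median log2 fold change of −0.17, and 11 of the 18 without a form fell and 3 rose, with a median of −0.19. In 293T, 9 of 18 fell and 1 rose with a form (median −0.08), and 9 of 18 fell and 2 rose without one (median −0.07). No test was made of these splits. The search covered only exact forms in a limited window, so a gene without a form may still be an E2F target. The split therefore cannot separate E2F targets from other genes.

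Depth was even, with 37171917 to 38884100 recovered counts per library. The lowest count of any of the 41 genes in any library was 454 (CCNE2), and their median level was 28.3 FPKM against 6.36 FPKM over all genes tested. Line markers matched the labels: KRT7 was at 604 FPKM in A549 and 0.642 in 293T controls, and NEFM was at 0.0407 and 42.4 FPKM. Of the other 293T markers, PAX2 was low in 293T itself (0.587 FPKM). Of 11 markers of fibroblasts, leukocytes and endothelium, 7 (COL1A2, DCN, PTPRC, CD3E, PECAM1, CDH5 and VWF) had group means of at most 0.0292 FPKM, while CD68 was at 23.6 FPKM in A549 controls. CD14 was at 2.96 FPKM in A549 and 0.253 in 293T controls, and LUM had group means of 0.373 to 1.01 FPKM. COL1A1, a fibroblast collagen, rose in A549 from 1.69 to 2.8 FPKM (0.48, limma adjusted p = 0.00335) and not in 293T (−0.14), a difference of 0.63 (adjusted p = 0.0183); the part of these markers in the results was not tested. Mitochondrially encoded genes took 7.69% to 7.96% of counts in exposed and 8.35% to 9.28% in control A549 libraries, and 4.37% to 4.45% against 4.85% to 5.21% in 293T. Exposed library 3 lay nearer to the controls than the other exposed libraries in both lines. On a first principal component holding 74.8% of the variance in A549, exposed libraries 1 to 3 were at −15.7, −18.2 and −9.91 and controls at 14 to 14.9. In 293T, with 71.8% of the variance, they were at −16.1, −14.7 and −6.51 and controls at 11.7 to 13.3. Counts are therefore also given without both exposed libraries 3.

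More of these genes were lower than higher after exposure in both lines. In A549, 26 of 41 (63.4%) fell and 3 (7.32%) rose at an adjusted p under 0.05, by limma on log2(FPKM + 1) with Benjamini-Hochberg adjustment over all 13811 genes. The background was 26.9% of all genes tested lower and 13.3% higher, and among the 6681 genes expressed at least as highly as CCNE2, the lowest of the group, 27.2% and 16.9%. In 293T, 21 of 41 (51.2%) fell and 3 (7.32%) rose, beside a background of 24.2% lower and 13.7% higher, or 26.1% and 16.3% among genes at those levels. The median log2 fold change was −0.18 in A549 and −0.08 in 293T, beside −0.04 and −0.03 over all genes tested. The falls were modest: the steepest was a drop of 39.0% in mean FPKM, for CCNE2 in A549. In bulk RNA, fewer cells in S phase and less of these transcripts per cell cannot be told apart.

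The median was below the control mean in each exposed library, by different amounts. In A549 exposed libraries 1, 2 and 3, the median of the 41 genes lay −0.22, −0.20 and −0.10 log2 units from the control mean, and 35, 34 and 30 of the 41 were below it. In 293T the medians were −0.11, −0.08 and −0.05, with 33, 28 and 25 genes below. Over all genes tested the medians were −0.05, −0.04 and −0.03 in A549 and −0.03, −0.04 and −0.02 in 293T. Library 3 thus had the smallest shift in both lines. With both exposed libraries 3 left out, an alternative chosen after the data were seen, 28 fell and 1 rose in A549, and 21 fell and 3 rose in 293T. Rescaling without the mitochondrially encoded genes gave 27 lower and 1 higher in A549, and 21 lower in 293T. With log2 values centred on the library median there were 21 lower and 4 higher in A549, and 16 lower and 4 higher in 293T. Quantile normalization gave 26 lower and 2 higher in A549, and 18 lower and 4 higher in 293T. In 293T the count of falls was 14 without exposed library 1, 13 without exposed library 2, and 14 without control library 1. The share of all genes called was not counted under these alternatives, so their counts have no background of their own. With median centring, the median over all genes tested moved from −0.0366 to 0.0187 in A549 and from −0.0311 to −0.00369 in 293T.

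**Figure D1:**
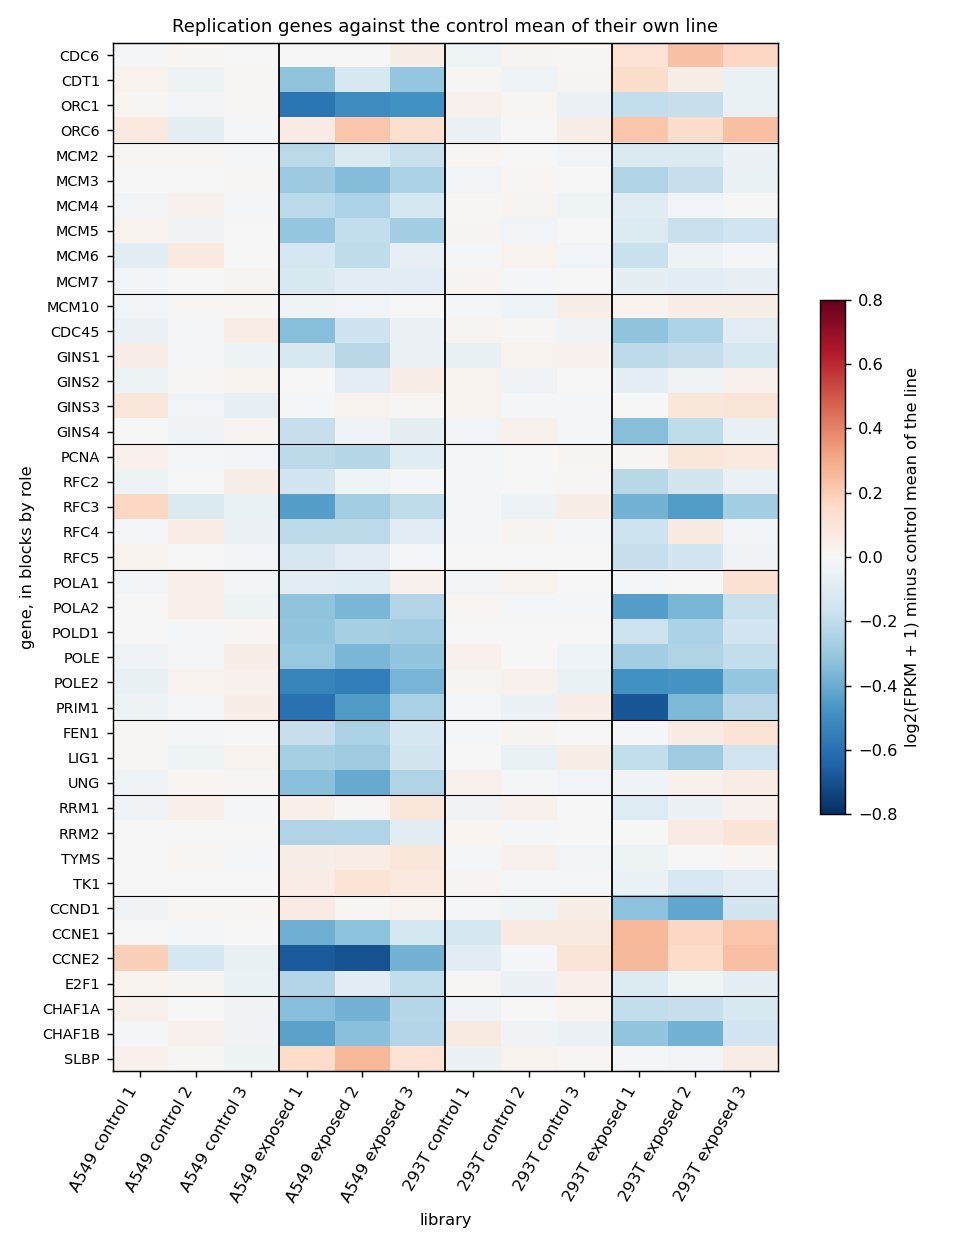
Each row is 1 of the 41 genes, in blocks by role from origin licensing at the top to histone supply at the bottom, and each column is 1 of the 12 libraries. Colour is log2(FPKM + 1) minus the control mean of the same line (blue lower, red higher); blue fills most of the exposed columns, with POLE2, PRIM1 and ORC1 among the darkest in A549, and is paler in exposed library 3 of each line.

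Of the origin licensing factors, ORC1 fell furthest, and ORC6 and CDC6 rose in 293T. ORC1, the ATPase subunit of the origin recognition complex (chr1:52372829-52409503), was at 13.7, 13.3 and 13.6 FPKM in A549 controls and 8.71, 9.25 and 9.4 FPKM in exposed libraries. All exposed A549 libraries lay below all controls, and the log2 fold change was −0.53 ± 0.04 (SE; limma adjusted p = 5.62e-06). In 293T ORC1 was at 21.3, 21.0 and 20.1 FPKM in controls and 18.0, 18.2 and 20.0 FPKM in exposed libraries. That fall was smaller, at −0.14 ± 0.04 (adjusted p = 0.0241), and library 3 all but reached the lowest control. It was lost under quantile normalization, in a fit of 293T alone, and without exposed library 1 or 2 or control library 1 or 2 (adjusted p up to 0.0925). The ORC1 span overlaps in part that of PRPF38A, and since the use of strand is not given, reads from the shared stretch may belong to either.

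ORC6, the smallest subunit of the complex, was at 36.9, 38.2 and 39.4 FPKM in 293T controls and 44.6, 42.1 and 45.2 FPKM after exposure. It rose by 0.20 ± 0.05 (adjusted p = 0.00759), with no overlap. In A549 it was at 23.9, 21.5 and 22.5 FPKM in controls and 23.7, 26.5 and 24.8 FPKM after exposure. These groups overlapped, and the rise of 0.14 ± 0.05 (adjusted p = 0.0414) was lost in 8 alternatives and without A549 exposed library 2 or 3, A549 control library 2 or 3, or 293T control library 2. CDC6, the ATPase that recruits MCM to the origin complex, was at 32.8, 34.1 and 34.0 FPKM in 293T controls and 36.5, 39.7 and 37.8 FPKM after exposure. Every exposed 293T library was above every control, a rise of 0.17 ± 0.03 (adjusted p = 0.00259). In A549 CDC6 was level, at 28.5, 29.1 and 28.7 against 28.7, 28.7 and 29.7 FPKM (log2 fold change 0.01 ± 0.03). The difference for CDC6 between the lines did not pass (−0.16, limma adjusted p = 0.0575). CDT1, its partner in loading MCM, was at 15.6, 14.8 and 15.4 FPKM in A549 controls and 12, 13.9 and 12.1 FPKM after exposure, a log2 fold change of −0.25 ± 0.06 (adjusted p = 0.00415) without overlap. In 293T CDT1 was at 32.4, 31.6 and 32.7 and then 35.6, 33.4 and 31.0 FPKM, with exposed libraries on both sides of the controls.

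All 6 MCM subunits had a log2 fold change below 0 in both lines, under the 5 other scalings as well. Of the 6, 5 fell in A549 (83.3%, median of the 6 −0.19) and 4 in 293T (66.7%, median −0.09). The background of all genes tested was 26.9% lower in A549 and 24.2% in 293T. MCM3 moved most, from 58.0, 58.1 and 58.5 FPKM in A549 controls to 47.5, 45.5 and 48.7 FPKM. The log2 fold change was −0.30 ± 0.04 (limma adjusted p = 0.000186). In 293T MCM3 went from 120, 123 and 122 to 103, 107 and 117 FPKM, a log2 fold change of −0.16 ± 0.04 (adjusted p = 0.00977). Neither line had an overlap for MCM3. MCM5 was at 35.2, 33.8 and 34.4 FPKM in A549 controls and 27.6, 29.9 and 28.4 FPKM after exposure (−0.26 ± 0.03, adjusted p = 0.000127). The 293T libraries were at 50.3, 48.9 and 49.5 and then 45.8, 43.6 and 44.3 FPKM (−0.15 ± 0.03, adjusted p = 0.00536). Its falls, like those of MCM3, were kept in every alternative run.

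MCM2 was at 45, 44.9 and 44.2 FPKM in A549 controls and 38.3, 41.2 and 39.4 FPKM after exposure (−0.17 ± 0.03, adjusted p = 0.00124). Its 293T levels were 113, 112 and 110 and then 103, 103 and 108 FPKM (−0.09 ± 0.03, adjusted p = 0.0359). MCM7 was at 123, 125 and 127 FPKM in A549 controls and 115, 118 and 118 FPKM after exposure (−0.10 ± 0.02, adjusted p = 0.00673). It was the highest of the ring subunits in both lines, and its intron carries the microRNA genes MIR25, MIR93 and MIR106B. In 293T MCM7 was at 176, 172 and 173 and then 165, 164 and 166 FPKM (−0.07 ± 0.02, adjusted p = 0.0271). The groups did not overlap for MCM2 or MCM7 in either line. Their 293T calls were nevertheless lost with log2 values centred on the library median, with no trend in the variance, and without exposed library 1 or 2 or control library 1 or 3 (MCM2 also without control library 2). The adjusted p then reached 0.145 for MCM2 and 0.223 for MCM7; the A549 call of MCM7 was lost with median centring alone (adjusted p = 0.288).

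MCM4 passed the test in A549 and not in 293T, and MCM6 passed in neither line. MCM4 was at 85.5, 89.1 and 86.1 FPKM in A549 controls and 74.6, 73.2 and 78.7 FPKM after exposure (−0.20 ± 0.03, adjusted p = 0.000724). In 293T its libraries overlapped, at 135, 136 and 131 against 125, 132 and 134 FPKM (−0.04 ± 0.03). MCM6 was at 51.8, 58.3 and 55.3 and then 50, 47.7 and 52.5 FPKM in A549 (−0.14 ± 0.05, adjusted p = 0.0528). The 293T values were 85.2, 87.4 and 84.5 and then 75.6, 83.4 and 84.7 FPKM (−0.08 ± 0.05). Exposed and control libraries overlapped for MCM6 in both lines.

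**Figure D2:**
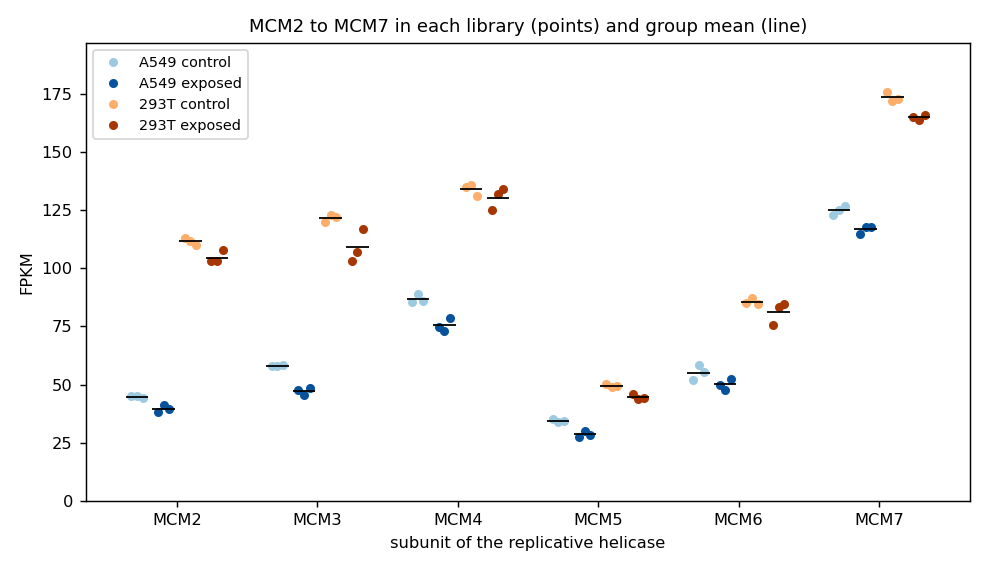
FPKM of the 6 MCM subunits in each library (points) with the mean of the 3 libraries (line), for A549 control, A549 exposed, 293T control and 293T exposed in that order within each subunit. All 6 subunits are lower in A549 than in 293T controls, and the exposed mean lies below the control mean in every pair.

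Of the 6 genes of helicase activation, 2 fell in A549 and 3 in 293T, and none rose. CDC45, which binds the MCM ring, had log2 fold changes of −0.19 ± 0.07 in A549 (limma adjusted p = 0.0477) and −0.22 ± 0.07 in 293T (adjusted p = 0.0281). The A549 call was lost in 7 settings, among them voom on recovered counts, and without A549 exposed library 1 or 2, 293T exposed library 2 or any 1 of the 6 control libraries (adjusted p up to 0.207). The 293T call was lost with no filter and without any 1 of the 293T libraries except exposed library 3 (adjusted p up to 0.114). GINS1 fell in both lines and GINS4 in 293T, while GINS2, GINS3 and MCM10 stayed between −0.02 and 0.06 in both. The A549 call of GINS1 was lost in 5 settings and in 4 fits with 1 library left out (adjusted p up to 0.159). For GINS4 the difference between the lines did not pass (0.11, adjusted p = 0.457). The GINS proteins work as 1 complex; of its 4 genes, 1 fell in A549 and 2 fell in 293T.

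PCNA, the sliding clamp, was the most abundant of the 41 genes and differed between the lines after exposure. It was at 351, 340 and 337 FPKM in A549 controls and 296, 292 and 320 FPKM in exposed libraries. All exposed A549 libraries lay below the controls (−0.18 ± 0.04, limma adjusted p = 0.00179). In 293T it was at 182, 184 and 187 and then 186, 196 and 195 FPKM, with overlap and no call (0.06 ± 0.04). PCNA shares its span with PCNA-AS1, so its reads carry that uncertainty. RFC3, a subunit of the loader that places the clamp on DNA, fell in both lines. It was at 6.94, 5.52 and 5.83 FPKM in A549 controls and 4.21, 4.83 and 5.13 FPKM after exposure (−0.31 ± 0.08, adjusted p = 0.00708). The 293T libraries were at 12.6, 12.3 and 13.1 and then 9.53, 9.03 and 10.3 FPKM (−0.37 ± 0.08, adjusted p = 0.0030). No exposed library reached its controls. Of the other loader subunits RFC4 fell in A549, and RFC2 and RFC5 fell in 293T.

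The polymerase and primase genes fell in both lines. Of 6, 5 fell in A549 and the same 5 in 293T, with medians of −0.32 and −0.28, the lowest median of any role group in each line. That is 83.3% in each line, beside 26.9% and 24.2% of all genes tested. POLE2, the second subunit of the leading-strand polymerase epsilon, was at 9.15, 9.77 and 9.83 FPKM in A549 controls and 6.29, 6.2 and 7.18 FPKM after exposure (−0.49 ± 0.06, limma adjusted p = 7.97e-05). Its 293T levels were 13.1, 13.2 and 12.4 and then 8.92, 9.0 and 10.2 FPKM (−0.42 ± 0.06, adjusted p = 0.000332). Its mean thus dropped by 31.6% in A549 and by 27.2% in 293T. POLE, the catalytic subunit, was at 14.4, 14.5 and 15.2 FPKM in A549 controls and 11.7, 11.2 and 11.6 FPKM after exposure (−0.33 ± 0.04, adjusted p = 3.62e-05). The 293T values were 34.4, 33.5 and 32.8 and then 27.5, 28.3 and 29.1 FPKM (−0.24 ± 0.04, adjusted p = 0.000405). Both epsilon subunits were without overlap in both lines.

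POLD1, the catalytic subunit of the lagging-strand polymerase delta, went from 21.4, 21.2 and 21.7 to 17.0, 17.7 and 17.5 FPKM in A549 (−0.29 ± 0.03, limma adjusted p = 4.55e-05). In 293T it went from 28.7, 28.8 and 28.7 to 25.4, 24.0 and 25.7 FPKM (−0.19 ± 0.03, adjusted p = 0.000871). The libraries of a group lay close together, and no exposed one reached a control. POLA2, the accessory subunit of the polymerase alpha that starts each strand with primase, went from 13.0, 13.4 and 12.6 to 10.2, 9.88 and 10.9 FPKM in A549 (−0.31 ± 0.06, adjusted p = 0.00133). In 293T it went from 21.7, 21.4 and 21.4 to 15.6, 16.5 and 18.9 FPKM (−0.33 ± 0.06, adjusted p = 0.00113). PRIM1, the catalytic primase subunit, also fell in both lines (−0.44 ± 0.10 in A549, adjusted p = 0.00511, and −0.42 ± 0.10 in 293T, adjusted p = 0.00721), and its exposed 293T libraries were widely spread (20.0, 25.3 and 28 FPKM). POLA1, the catalytic subunit of polymerase alpha, was the exception at −0.05 ± 0.05 and 0.04 ± 0.05.

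Of the enzymes that finish Okazaki fragments and remove uracil, 3 of 3 fell in A549 and 1 of 3 (33.3%) in 293T. Of all genes tested, 26.9% and 24.2% fell. UNG, the uracil DNA glycosylase (chr12:109097597-109110992), was at 48.5, 49.9 and 49.8 FPKM in A549 controls and 39.0, 37.1 and 41.6 FPKM after exposure. The groups did not overlap (−0.33 ± 0.04, limma adjusted p = 7.58e-05). In 293T UNG was at 60.9, 58.9 and 58.4 and then 58.1, 60.8 and 61.9 FPKM, with the groups mixed (0.02 ± 0.04). FEN1, the flap endonuclease, had −0.19 ± 0.04 in A549 (adjusted p = 0.00122) and 0.06 ± 0.04 in 293T. LIG1, the ligase that seals the fragments, fell in both (−0.23 ± 0.05 in A549, adjusted p = 0.00196, and −0.21 ± 0.05 in 293T, adjusted p = 0.00413).

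Of the 4 deoxynucleotide genes, 1 fell (25.0%) and 1 rose (25.0%) in A549, and 1 fell (25.0%) and 0 rose in 293T. Of all genes tested, 26.9% fell and 13.3% rose in A549, and 24.2% and 13.7% in 293T. RRM2, the S-phase subunit of ribonucleotide reductase, was at 93.7, 93.2 and 93.1 FPKM in A549 controls and 79.0, 79.0 and 87.8 FPKM after exposure (−0.19 ± 0.04, limma adjusted p = 0.00283). In 293T it was at 79.0, 77.3 and 78.5 and then 78.3, 82.1 and 84.0 FPKM, with overlap (0.06 ± 0.04). TK1, the thymidine salvage kinase, took opposite directions. It was at 74.6, 74.3 and 74.0 FPKM in A549 controls and 77.3, 80.3 and 78.5 FPKM after exposure (0.08 ± 0.03, adjusted p = 0.0308). The 293T libraries were at 52.9, 51.8 and 51.9 and then 50.2, 47.7 and 49.2 FPKM (−0.09 ± 0.03, adjusted p = 0.0217). The groups did not overlap in either line, and the mean rose by 5.92% in A549 and dropped by 6.13% in 293T. The A549 call was lost under quantile normalization, with the sum without mitochondrially encoded genes, with no trend, without both exposed libraries 3, and without A549 exposed library 2 or 3 or any A549 control library (adjusted p up to 0.25). The 293T call was lost under quantile normalization or median centring, with no trend, and without exposed library 2 or control library 1 (adjusted p up to 0.118). RRM1 and TYMS, the large reductase subunit and thymidylate synthase, did not pass the test in either line.

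Of the 41 genes, the cyclin E genes CCNE2 and CCNE1 had the largest differences in log2 fold change between the lines (−0.80 and −0.50). By adjusted p of the limma test of that difference, ORC1 and UNG ranked ahead of both. The cyclin gene CCND1 differed in the other direction (0.34). CCNE2, cyclin E2, was at 6.65, 5.12 and 5.44 FPKM in A549 controls and 3.2, 3.14 and 4.15 FPKM after exposure. This was the largest fall of the 41 genes in A549 (−0.58 ± 0.09, limma adjusted p = 0.000465). In 293T CCNE2 was at 7.63, 8.08 and 8.87 and then 10, 9.17 and 9.83 FPKM. Every exposed 293T library was above its controls, but the change of 0.22 ± 0.09 did not pass (adjusted p = 0.0917; 0.0371 to 0.254 over the alternatives). CCNE2 overlaps INTS8 and NDUFAF6.

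CCNE1, cyclin E1 (chr19:29811991-29824312), was called lower in A549 and higher in 293T. It was at 21.4, 21.2 and 21.4 FPKM in A549 controls and 16.0, 16.8 and 19.3 FPKM after exposure (−0.29 ± 0.07, limma adjusted p = 0.00484). Its 293T levels were 16.6, 19.4 and 19.4 and then 22.3, 20.8 and 21.6 FPKM (0.22 ± 0.07, adjusted p = 0.0230). Groups did not overlap in either line; the 293T rise was lost without a filter and without exposed library 1 or control library 1, the control that lay lowest (adjusted p up to 0.101). CCND1, cyclin D1, stayed high in A549, at 110, 113 and 113 against 117, 113 and 114 FPKM (0.04 ± 0.05). In 293T CCND1 was low and fell, from 13.1, 12.8 and 13.6 to 10.3, 9.64 and 11.8 FPKM (−0.30 ± 0.05, adjusted p = 0.00127). E2F1, an activator of S-phase genes, was at 26.0, 25.8 and 24.5 FPKM in A549 controls and 21.5, 23.8 and 22.1 FPKM after exposure (−0.17 ± 0.04, adjusted p = 0.0061). Median centring moved that value to an adjusted p of 0.0532. In 293T E2F1 overlapped between groups, at 24.1, 23.1 and 24.6 against 22.1, 23.3 and 22.6 FPKM (−0.08 ± 0.04). Its difference between the lines did not pass (−0.10, adjusted p = 0.321).

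Among the genes of histone supply, the chaperone subunits and SLBP went opposite ways in A549. CHAF1A, the large subunit of chromatin assembly factor 1, went from 15.2, 14.8 and 14.5 to 11.5, 11.2 and 12.5 FPKM in A549 (−0.31 ± 0.04, limma adjusted p = 0.000104). In 293T it went from 32.3, 33.1 and 33.6 to 28.6, 28.9 and 30.2 FPKM (−0.17 ± 0.04, adjusted p = 0.00664). Its partner CHAF1B fell in both lines (−0.33 ± 0.06, adjusted p = 0.00126, and −0.28 ± 0.06, adjusted p = 0.0044). SLBP binds the stem-loop of replication-dependent histone transcripts. It was at 49.9, 49.1 and 47.3 FPKM in A549 controls and 54.0, 58.8 and 52.8 FPKM after exposure, all above the controls (0.17 ± 0.04, adjusted p = 0.00582). In 293T SLBP was level, at 60.6, 63.8 and 63.3 against 62.2, 61.5 and 65.2 FPKM (0.01 ± 0.04). The difference for SLBP between the lines did not pass (0.16, adjusted p = 0.0926).

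**Figure D3:**
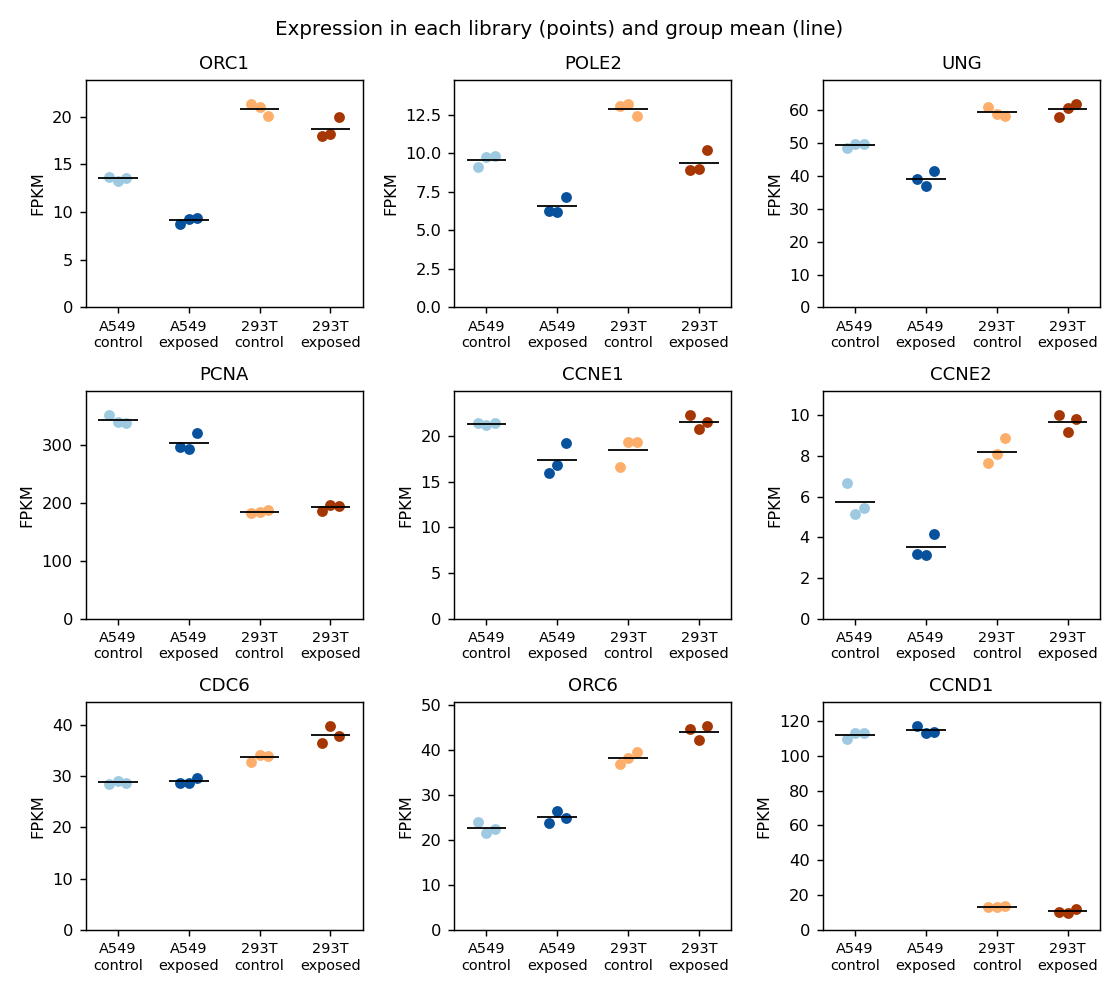
FPKM in each of the 12 libraries (points) and group means (lines) for 9 of the genes, each panel from 0. ORC1, POLE2, UNG, PCNA, CCNE1 and CCNE2 are lower in exposed than in control A549 libraries, CCNE1, CDC6 and ORC6 are higher in exposed 293T libraries, and CCND1 lies between 110 and 117 FPKM in A549 and between 9.64 and 13.6 FPKM in 293T.

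Between the lines, 16 of the 41 genes fell in both: MCM2, MCM3, MCM5, MCM7, CDC45, ORC1, GINS1, RFC3, POLA2, POLD1, POLE, POLE2, PRIM1, LIG1, CHAF1A and CHAF1B. The share of all genes tested that fell in both lines was not counted, so this count has no background beside it. A further 9 fell in A549 and were not called in 293T, and 4 fell in 293T and were not called in A549. Calls in opposite directions were made for TK1 and CCNE1, and 7 genes were called in neither line. Whether 2 changes differ was tested directly, as the A549 log2 fold change minus the 293T one. By that test 9 genes (22.0%) were lower and 2 (4.88%) higher in A549, beside a background of 7.03% and 5.51% of all genes tested (6.42% and 6.56% among genes at the levels of the group). The 9 were CCNE2 (−0.80 ± 0.13, limma adjusted p = 0.00301), CCNE1 (−0.50 ± 0.09, adjusted p = 0.0058), ORC1 (−0.38 ± 0.06, adjusted p = 0.00273), UNG (−0.35 ± 0.06, adjusted p = 0.00281), CDT1, FEN1, PCNA, RRM2 and MCM4. The 2 were CCND1 (0.34 ± 0.08, adjusted p = 0.0145) and TK1 (0.17 ± 0.04, adjusted p = 0.0139). No gene of the polymerases, primase or helicase activation was among them. The difference for MCM4 was lost with a pseudocount of 0.1, no filter, median centring or no trend, and without any 1 library other than 293T exposed 1 and A549 exposed 3 (adjusted p up to 0.119). The difference for CDT1 was lost with no filter or median centring, and without any 1 library other than 293T exposed 3, A549 exposed 2 and A549 control 2 (adjusted p up to 0.0864). Across the 41 genes the 2 sets of log2 fold changes had a Pearson correlation of 0.35 (Spearman 0.37), and across all genes tested 0.60 (0.56). Genes are not independent replicates, and these are descriptions.

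**Figure D4:**
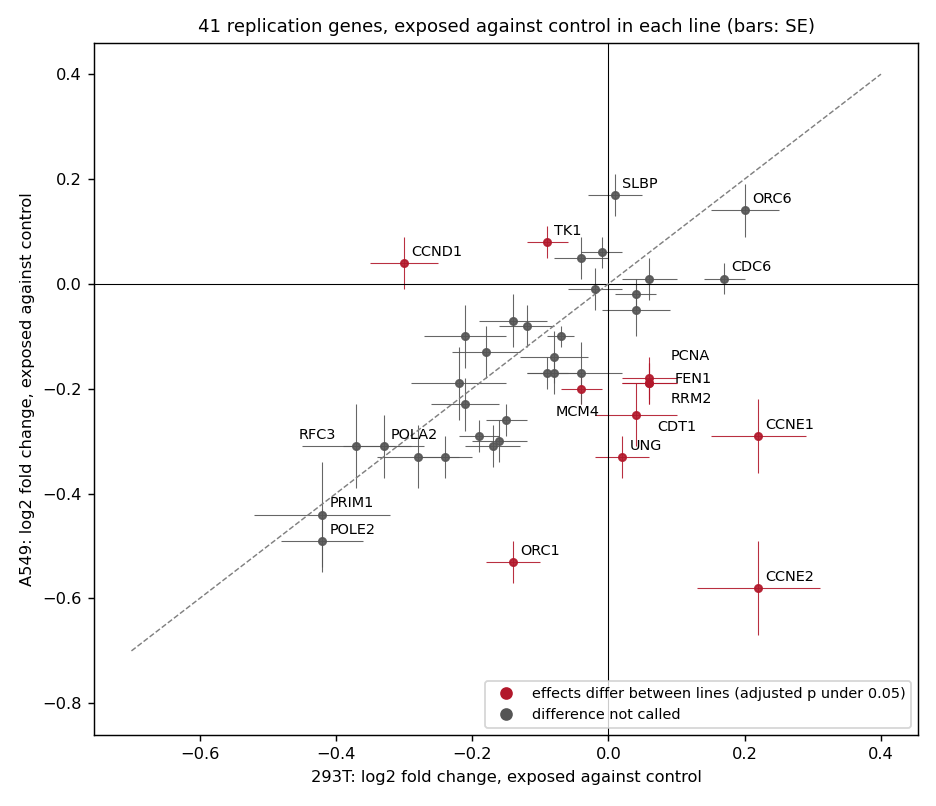
Log2 fold change on exposure of each of the 41 genes in 293T (horizontal) and A549 (vertical), with standard errors as bars; the dashed line marks equal change. Red points are the 11 genes whose changes differed between the lines, with CCNE2 and CCNE1 at the lower right, while POLE2, PRIM1, POLA2 and RFC3 lie near the dashed line at the lower left.

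The unexposed lines differed far more than either did on exposure. This comparison uses the same control libraries as the exposure comparisons. Relative to 293T controls, 31 of 41 genes (75.6%) were lower in A549 controls and 8 (19.5%) higher, beside a background of 55.9% and 32.4% of all genes tested (58.0% and 31.7% at the levels of the group). The median was −0.58, against −0.25 over all genes, and the latter ranged from −0.41 to −0.15 with the scaling used. MCM2 was 2.5-fold lower in A549 (log2 difference −1.30 ± 0.03, limma adjusted p = 3.08e-13), and MCM3 was 2.09-fold lower. POLE (2.29-fold) and CHAF1A (2.22-fold) were lower to a like degree. All 6 MCM subunits, all 4 origin and licensing factors and all 3 histone supply genes were lower in A549. CCND1 was the reverse, 8.47-fold higher in A549 (2.99 ± 0.05, adjusted p = 1.52e-14). PCNA was 1.86-fold, TK1 1.42-fold and RRM2 1.19-fold higher. Rescaling to TPM left 5 of the 8 higher calls, with LIG1, TYMS and CCNE1 lost.

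Other gene lists put these counts in context. Of 48 further replication genes, 15 fell and 8 rose in A549 (median −0.06), and 13 fell and 5 rose in 293T (median −0.07). These are 31.2% lower and 16.7% higher in A549 and 27.1% and 10.4% in 293T, near the background of all genes tested (26.9% and 13.3%, and 24.2% and 13.7%). The topoisomerase TOP1 rose by 0.28 in A549 and was at 0.06 in 293T, which did not pass. The difference of 0.22 was called (limma adjusted p = 0.00535). CTC1, of the telomere replication complex CST, fell in both lines (−0.46 in A549 and −0.18 in 293T), by more in A549 (difference −0.28, limma adjusted p = 0.0222). TICRR, which helps load CDC45, rose in both lines (0.40 and 0.36), and CHTF18, of an alternative clamp loader, fell in both (−0.52 and −0.43). RFC1, the large clamp loader subunit, fell in both as well (−0.26 and −0.30). GMNN, the CDT1 inhibitor geminin, rose by 0.25 in 293T and was at −0.03 in A549, which did not pass. Its difference of −0.28 was called (adjusted p = 0.0118).

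Of 33 G1/S regulators, 6 fell and 5 rose in A549 (median 0.02), and 4 fell and 14 rose in 293T (median 0.11), or 18.2% lower and 15.2% higher in A549 and 12.1% and 42.4% in 293T. The background of all genes tested was 26.9% lower and 13.3% higher in A549, and 24.2% and 13.7% in 293T. CDKN1A, an inhibitor of the cyclin-dependent kinases, rose from 14 to 24.1 FPKM in 293T (0.74, limma adjusted p = 5.19e-06) and was at 75.4 and 80.3 FPKM in A549 (0.09). The changes differed by −0.65 (adjusted p = 0.000321). E2F3, an activating E2F, rose in 293T (0.54) and did not pass in A549 (0.04), with a difference of −0.50 (adjusted p = 0.00105). CDKN2B, an inhibitor of the cyclin D kinases, also rose in 293T (0.33). In A549 CDKN2B was barely detected, at 0.00216 FPKM in controls and 0.00664 after exposure. Its log2 fold change there (0.01) therefore cannot show whether it responds. In A549 E2F2 fell (−0.67) and FOXM1, an activator of mitotic genes, rose (0.22), and neither passed in 293T (0.14 and −0.06). Both differences were called (−0.80 and 0.29, adjusted p = 0.0006 and 0.000588). CCND3, cyclin D3, rose in both lines (0.24 in A549 and 0.18 in 293T). TFDP2, an E2F partner, fell in both (−0.19 and −0.17), as did RBL1, of the RB family (−0.23 and −0.36). None of these 3 differed between the lines by the test of the difference (limma adjusted p = 0.653, 0.88 and 0.383).

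Of 20 checkpoint and replication stress genes tested, 4 fell and 2 rose in A549 (median −0.07), and 5 fell and 3 rose in 293T (median −0.10). At 20.0% lower and 10% higher in A549 and 25.0% and 15.0% in 293T, this list too lay near the background. HUS1, of the checkpoint clamp, rose in both lines (0.22 and 0.26), and ETAA1, an ATR activator, fell in both (−0.43 and −0.34). WEE1, the kinase that inhibits CDK1, rose in 293T from 13.6 to 20.2 FPKM (0.54) and in A549 from 11 to 13 FPKM (0.21), by less in A549 (difference −0.33, limma adjusted p = 0.0494). MSH6 and RAD9A fell in A549 (−0.33 and −0.26) and did not pass in 293T (−0.13 and −0.14). In 293T BRCA1 fell (−0.32) and EXO1 rose (0.25), and neither passed in A549 (−0.16 and 0.09). The test of the difference between the lines called none of MSH6, RAD9A, BRCA1 and EXO1 (adjusted p = 0.0875, 0.365, 0.285 and 0.103).

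Of 30 genes of G2/M and mitosis, 8 rose and 6 fell in A549 (median 0.01), and 2 rose and 10 fell in 293T (median −0.10), or 26.7% higher and 20.0% lower in A549 and 6.67% and 33.3% in 293T. All genes tested were 13.3% higher and 26.9% lower in A549, and 13.7% and 24.2% in 293T. The test of the difference between the lines called 9 of them (30.0%) higher and 0 lower in A549. Over all genes tested it called 5.51% higher and 7.03% lower. The tilt was opposite to the 2 higher (4.88%) and 9 lower (22.0%) among the replication genes. UBE2C, an E2 enzyme of the anaphase-promoting complex, rose in A549 from 58.6 to 80.3 FPKM (0.45), and CCNB1, cyclin B1, from 62.9 to 77.5 FPKM (0.29). Neither passed in 293T (0.03 and −0.11), and both differences were called (0.42 and 0.40, limma adjusted p = 0.000832 and 0.00182). CENPA, the centromeric histone, rose in both lines (0.42 in A549 and 0.20 in 293T), by more in A549 (difference 0.22, limma adjusted p = 0.048). The kinase PLK1 fell in 293T from 99.6 to 70.3 FPKM (−0.50) and by less in A549 (−0.15), with a difference of 0.35 (adjusted p = 0.00828). KIF2C fell in 293T (−0.36) and did not pass in A549 (−0.10), but the difference of 0.26 was not called (adjusted p = 0.123). CDC20 fell in both lines (−0.15 in A549 and −0.23 in 293T), as did ESPL1, separase (−0.57 and −0.49).

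**Figure D5:**
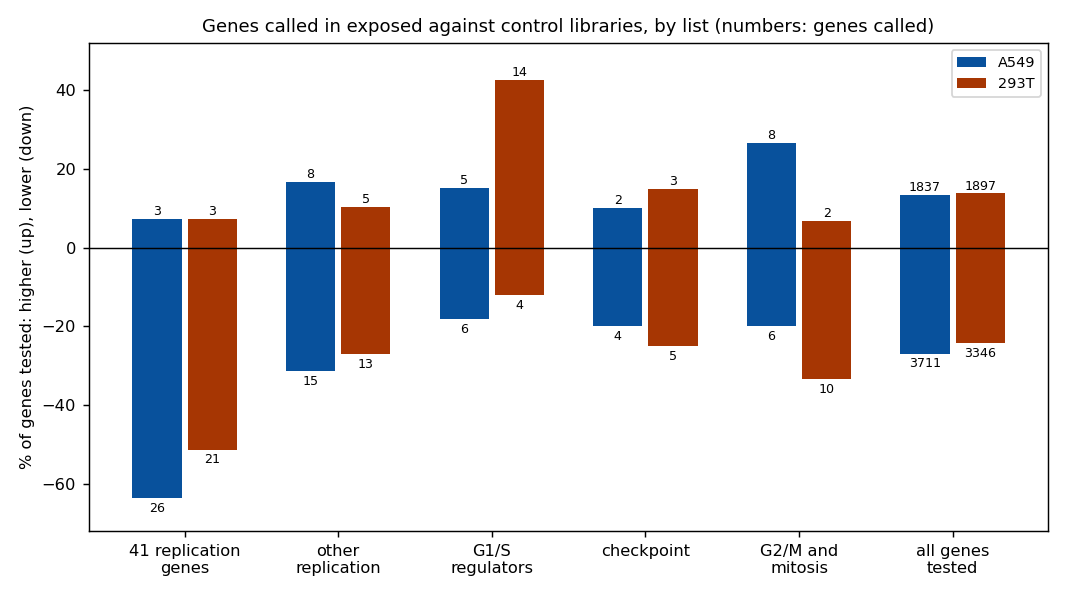
Percent of genes called higher (bars up) and lower (bars down) on exposure in each list, for A549 and 293T, with the number of genes at each bar; all genes tested are at the right. The 41 replication genes have the longest bars downward, 63.4% in A549 and 51.2% in 293T, and the G1/S regulators the longest upward bar, 14 of 33 in 293T.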

How the data were processed

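RNA of A549 and 293T cells, exposed or not, had been extracted with TRIzol, treated with DNase, selected on oligo(dT) beads and sequenced as paired ends, per the labels' protocols. The authors used fastp, HISAT2 and HTSeq with GRCh38, per the submitters' processing notes; their versions and settings and the use of strand are not given in the sources used here. Without strand, reads from a stretch shared with an overlapping neighbour may belong to either gene, which touches 18 of the 41 genes. The authors deposited FPKM, in which each gene's fragments are scaled by its length and by the library total.

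Whole counts were recovered from the FPKM ratios for 100% of 26348 genes within 0.01 counts, and gave the depth (37171917 to 38884100 per library, the highest 1.046 times the lowest) and 1 alternative. Genes with at least 0.5 FPKM in at least 3 libraries were kept (13811; 12537 removed). A linear model of log2(FPKM + 1), with a mean for each of the 4 groups and 8 residual degrees of freedom over 12 libraries, was run in limma 3.58.1 under R 4.3.3 with a variance trend. Such a fold change understates that of low genes. Tests were two-sided, with Benjamini-Hochberg adjustment across the 13811 genes and calls at 0.05; standard errors are limma's. Every adjusted p printed comes from that fit unless a setting is named. Folds and percent changes are of mean FPKM. Scripts ran in Python 3.11.15 with pandas 2.3.3 and numpy 2.4.6, and the fit was tested on simulated data. Coordinates and promoters are RefSeq's, GRCh38.p14.

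The genes, the lists and the tests were chosen with earlier results of these data known. Values in each library are given by rule. They cover, in each line, all genes in the direction fewer took and the 6 smallest adjusted p in the other. They also cover the 4 smallest each way for the difference between lines and for the controls. MCM2 to MCM7, PCNA, CCND1, CCNE1, CCNE2, E2F1, CDC6, CDT1 and RRM2 are always given. From each other list, up to 4 genes per line are named, those with the smallest adjusted p. For these the log2 fold change and for some the group means are given, without values in each library. Alternatives changed 1 choice at a time: no filter, a mean of at least 1 FPKM, a pseudocount of 0.1, quantile normalization, median centring, TPM, a sum without mitochondrial genes, no variance trend, voom on recovered counts, the replicate number as a block, each line alone, and each library left out. Leaving out both exposed libraries 3 was added after the data were seen.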

Additional observations from a re-analysis of the deposited data

Results flagged for a closer look

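For 11 of the 41 genes the log2 fold change on exposure differed between the lines by the limma test of the difference itself (A549 minus 293T, adjusted over 13811 genes). Of the 41, 22.0% were lower and 4.88% higher in A549, beside 7.03% and 5.51% of all genes tested. By size of the difference the cyclin E genes lead them, with CCNE2 at −0.80 (a fall in A549, 0.22 in 293T) and CCNE1 at −0.50. The origin subunit ORC1 was at −0.38 and the glycosylase UNG at −0.35. CDT1 was at −0.30, FEN1 at −0.25, PCNA at −0.24, RRM2 at −0.24 and MCM4 at −0.16. In the other direction the cyclin D1 gene CCND1 was at 0.34 and TK1 at 0.17. Without both exposed libraries 3 the counts were 10 lower and 3 higher. TK1 missed the threshold under quantile normalization (adjusted p = 0.0577). The differences for MCM4 and CDT1 were lost in more of the alternatives, with limma adjusted p up to 0.119 and 0.0864.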

How the results depend on the processing

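No named value changed sign as a called result in any alternative. Of the calls made, 22 of 29 in A549, 15 of 24 in 293T, 8 of 11 for the difference between lines and 35 of 39 for the controls were kept in every alternative. The 3 genes higher in A549 became 1 with the sum without mitochondrial genes, with no trend, with the replicate block and without both exposed libraries 3; the 2 higher in the difference became 1 with quantile normalization; and the 8 higher in the controls became 5 with TPM. With 1 library left out at a time, A549 gave 1 to 3 higher and 23 to 27 lower, 293T 2 to 4 higher and 13 to 21 lower, the difference 2 higher and 7 to 9 lower, and the controls 7 to 9 higher and 31 lower. Calls also lost were, in A549, GINS1 (no filter, median centring, TPM, A549 alone, and without A549 exposed library 1 or 2 or control library 1 or 2) and RFC4 (no filter, median centring, and without exposed library 1 or 2 or control library 2), and in 293T, GINS4 (293T alone, and without exposed library 1 or 2 or control library 2), RFC2 (no filter, median centring, and without exposed library 1 or 2 or any 293T control) and RFC5 (in 8 settings, and without 293T exposed library 1 or 2, A549 exposed library 2 or any 1 control library). The causes were not tested. Same-numbered exposed and control libraries did not deviate together (correlations −0.141, −0.074 and −0.043 in A549, and −0.074, 0 and −0.095 in 293T). Whether same-numbered libraries were handled together is not stated. The replicate block gave 25 lower in A549, and 16 lower and 3 higher in 293T. It gave 7 lower and 2 higher in the difference, and 30 lower and 7 higher in the controls. Calls not made under the block were ORC6, GINS1 and TK1 in A549, MCM2, MCM7, ORC1, RFC5 and TK1 in 293T, MCM4 and CDT1 for the difference, and FEN1 and CCNE1 for the controls.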
